A study of Mus musculus with 2 samples.

Results

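MHC class II high macrophages are the macrophages of the day 7 mouse infarct whose transcripts of the classical class II molecules, H2-Aa, H2-Ab1 and H2-Eb1, stood out over 3 other macrophage programmes. They were chosen in both libraries from cells with at least 300 genes, at least 500 UMIs (unique molecular identifiers, counted cDNA molecules) and at most 20% mitochondrial UMIs. Macrophages were the cells with at least 30 UMIs of C1qa, C1qb and C1qc per 10000 and fewer than 3 UMIs of Mki67, Top2a and Birc5, which leaves out cycling cells. Each macrophage received 4 scores, the logarithm of a summed level per 10000 UMIs, z-scored over all macrophages: M for the class II genes, R for Cd163, Cbr2, Folr2 and Timd4, L for Mmp12, Gpnmb and Atp6v0d2, and G for Gdf15, Cxcr4 and Pla2g7. A class II high macrophage had M as its highest score and above 0.5. This gave 1606 cells among 7185 macrophages and 22774 barcodes, 1580 of them in the GFPhi library and 26 in the GFPlo library.

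The study traced cells that express p16, the Cdkn2a product that marks senescent cells, in p16-2A-CreER;R26-mTmG mice, in which the p16 locus drives the tamoxifen-dependent recombinase and recombined cells and their progeny switch from membrane Tomato to membrane GFP. All mice carried both alleles, all underwent myocardial infarction (MI), all received tamoxifen by oral gavage on day 5, and the infarct zone was harvested on day 7. Its cells, freed of cardiomyocytes and erythrocytes, were sorted into GFPhi and GFPlo (labelled GFP positive and GFP negative), with 1 library each. The number, sex and age of the mice behind each library were not given in the sources used here, and no uninfarcted or untreated group was analysed here. With 1 library a group there are no replicates, so no test was made: every interval below is an exact 95% interval that covers counting error only, and cells of 1 library are not replicates.

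Macrophages display peptides of engulfed proteins on MHC class II to CD4 T cells. The alpha and beta chains pair in the endoplasmic reticulum with the invariant chain (Cd74), which is cut down by cathepsin S (Ctss) in endosomes, and H2-DM then exchanges the last fragment for peptide. The coactivator CIITA (Ciita) switches the whole set on, binding to RFX and NF-Y proteins on the X and Y boxes of class II promoters, and interferon-gamma is its classical inducer in macrophages. In the heart, macrophages with high class II and the chemokine receptor CCR2 are known to be replenished from blood monocytes, whereas Timd4, Lyve1 and Folr2 mark long-lived resident macrophages.

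The class II genes lie together on mouse chromosome 17. H2-Aa spans chr17:34282744-34287823 on the minus strand, H2-Ab1 chr17:34257689-34269419 and H2-Eb1 chr17:34305867-34316674 on the plus strand (mm10, GENCODE release 21). Proximal promoters of 3 class II genes are shown because CIITA acts on such promoters: H2-Eb1 and H2-Aa are genes of the rule and H2-Eb2 is a neighbour outside it. RefSeq promoters (GRCm38.p6, 250 bases before to 50 after the start) were searched on both strands for the X box consensus and the Y box letters GATTGG, capitals below. The motifs did not overlap in the stretches shown.
H2-Eb1: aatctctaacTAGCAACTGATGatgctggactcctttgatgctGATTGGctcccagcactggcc
H2-Eb2: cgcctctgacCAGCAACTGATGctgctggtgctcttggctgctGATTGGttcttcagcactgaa
H2-Aa: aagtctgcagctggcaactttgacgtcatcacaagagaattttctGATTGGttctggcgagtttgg

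The H2-Eb1 stretch is chr17:34305764-34305827 on the plus strand, with the X match starting 93 and the Y letters 60 bases before the start, and lies within the gene span of Gm20513 but in none of its exons. The H2-Eb2 stretch is chr17:34325531-34325594 on the plus strand, with the matches starting 134 and 101 bases before the start, and the H2-Aa stretch is chr17:34287852-34287917 on the minus strand, with the Y letters 49 bases before the start. Both lie outside annotated genes. Of 32851 promoters, 97 (0.295%) held the X consensus and 5292 (16.1%) the Y letters. Of 13 class II pathway genes with a promoter in the counts by gene, 3 held the X consensus and 10 the Y letters. Of 13 class I genes 0 and 8 did. A looser X form that was searched first, without the first base and with 1 fixed position freed, matched 318 promoters (0.968%), 4 of the class II genes and 1 of the class I genes, and the consensus was chosen after these counts were seen. X followed by Y on the gene's strand with starts 25 to 40 bases apart, a spacing set after these 3 had been seen, the consensus occurred in 3 promoters in all (0.00913%), those of H2-Eb1, H2-Eb2 and H2-DMb1. H2-Ab1, Cd74 and Ciita had no promoter in the counts by gene. These counts left out all promoters on the chromosome of Cd74, so Cd74 was not searched by gene. A match of letters is a description of the sequence, not a mapped binding site.

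The 2 libraries held 91343549 UMIs (GFPhi) and 104855204 UMIs (GFPlo), with a median of 6899 and 7712 UMIs over the 10125 and 11959 cells that passed the quality limits. The class II high macrophages of GFPhi had a median of 5898.5 UMIs and 1827.5 genes, below the 6950 UMIs of the other macrophages, and 10098299 UMIs in sum. After every cell was thinned to 2000 UMIs the median was 878 genes against 898. The GFPlo members held 132830 UMIs in sum, a median of 4677.5. Of 94 barcodes that occur in both libraries, 20 belonged to GFPhi members.

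In the GFPhi library class II high macrophages made up 22.1% of the macrophages (1580 of 7137, interval 21.2 to 23.1%) and 15.6% of all kept cells (interval 14.9 to 16.3%). The R class held 16.5% of the GFPhi macrophages, the L class 21.5% and the G class 19.7%, and 1443 macrophages, unclassed below, had no score above 0.5. GFPlo had few macrophages, 48 of 11959 kept cells (0.401%), of which 26 were class II high (54.2%, interval 39.2 to 68.6%). Of all sequenced class II high macrophages 98.4% were in the GFPhi library, a share that also depends on how many cells of each gate were loaded. The GFPlo share depended on pooling the libraries for the z-scores: scored within its own library, 14 of the 48 cells (29.2%) were members.

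The score is a range without a gap at its limit. M ran from 0.5001 to 2.27 with a median of 1.58, and the summed class II level from 20.7 to 754 UMIs per 10000, median 188. The 53 members just inside the limit (M between 0.5 and 0.6) had a median of 22.8 per 10000, and the 36 cells just outside it (0.4 to 0.5, M highest) a median of 18.9. A further 539 macrophages had M above 0.5 but a higher R, L or G score, with a median class II level of 52.2 per 10000. For 46 members the next score lay within 0.1 of M. The plot of M against the next score shows this continuum.

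**Figure D1:**
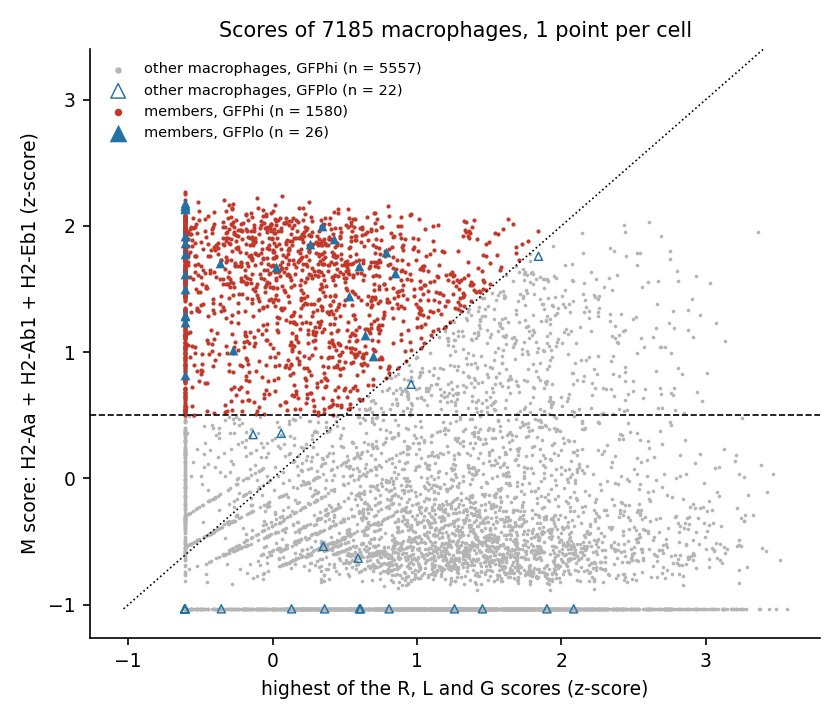
M score (z-score of the class II level) of each of 7185 macrophages against the highest of its R, L and G scores. Members lie above the dashed limit at 0.5 and above the dotted line of equal scores, and cells continue on both sides of each line; the column of points at the left edge are cells with no UMI of the R, L and G genes.

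The values of the rule's own genes describe the choice and are no result. In GFPhi members H2-Aa had 8691 CPM (UMIs of a gene per 1000000 UMIs of the summed cells), H2-Ab1 5186 CPM and H2-Eb1 7271 CPM, against 483, 304 and 338 CPM in the other macrophages. In GFPlo members the same genes had 10261, 6429 and 10201 CPM. The C1q genes, which only had to pass a minimum, were alike in members and other macrophages of GFPhi (C1qa 4371 and 3985 CPM) and lower in GFPlo members (1860 CPM). Since the rule chose on these genes, they do not check the label. Macrophage identity genes outside the rule were present: Csf1r, the receptor of the macrophage growth factor CSF1, had 367 CPM in GFPhi members and 323 CPM in the other macrophages, and Adgre1 (F4/80) 288 and 269.9 CPM. Cd68, Trem2 and Mertk, of 14 identity genes, were more than 1.5-fold lower in members than in the other macrophages.

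Members and other macrophages were separated by their scores, so the differences below describe the chosen cells. A gene counts as higher or lower when it passes 1.5-fold, with at least 10 CPM in either group and at least 3 UMIs in all. The 13 score genes, the C1q genes and the 3 cycling genes are never counted. Against the 5557 other macrophages of GFPhi, 315 of 7153 measured genes were higher (4.40%) and 451 lower (6.31%), with a median ratio of 0.966 over all measured genes. Without the cells whose barcode occurs in both libraries these counts were 313 and 441. The other macrophages include the R, L and G classes, whose scores the rule keeps below M in members. The 1443 unclassed GFPhi macrophages, with no score above 0.5, are therefore given beside them. Members differ from unclassed cells in M and partly in the other scores. Of GFPhi members 170, 160 and 75 had a next score, G, L or R, above 0.5 too. Unclassed cells held more RNA of other cell types: the fibroblast list summed to 869 CPM in them and 222 CPM in members, with 5 of 5 genes lower in members (median ratio 0.246), and 3 of 3 measured mesothelial genes were lower (0.407). The part of these markers in the comparison was not tested. Against unclassed cells 123 of 7178 genes were higher (1.71%) and 297 lower (4.14%).

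Apart from Iglv1, Igha and Jchain, described below, Cd74 and Ciita of the class II machinery led the genes named by rank. Cd74, the invariant chain, had 14110 CPM in GFPhi members, 448 CPM in unclassed cells, and 971, 1278 and 889 CPM in the R, L and G classes. Ciita, the class II coactivator (chr16:10480059-10528418, plus strand), had 62.9 CPM in members and 3.87 to 5.63 CPM in these 4 classes. Summed over cells, the 2 genes were thus lower in each of the 4 other classes than in members. The ratios to all other macrophages were 14.8 (interval 14.6 to 14.9) and 13.2 (interval 11.2 to 15.5). Such sums do not show single cells, and the other classes include macrophages with M above 0.5 but a higher other score. The rule chose members on class II genes of the same set, so the ratios describe that choice.

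The peptide exchange factor H2-DM was higher too, ranked after Ccr2 and Clec4b1. H2-DMa had 467 CPM in members and 89.5 CPM in the other macrophages, a ratio of 5.22 (interval 5.00 to 5.44). H2-DMb1 had 438 and 60.4 CPM, a ratio of 7.24 (interval 6.90 to 7.60). These were the 4 higher genes of 9 measured in the class II pathway list of 15 outside the rule, with none lower and a list median ratio of 1.31. H2-Oa, H2-Ob, H2-DMb2 and H2-Eb2 stayed below 10 CPM in both groups.

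The endosomal enzymes and the RFX subunits were close to even. Ctss had 4240 CPM in members and 4563 CPM in the other macrophages, Lgmn, an endosomal protease, 796 and 1057 CPM, and Ifi30, which reduces disulphides of antigens, 617 and 525 CPM. The RFX subunits Rfx5, Rfxank and Rfxap, which bind the X box, had 3.27, 9.90 and 22.7 CPM in members against 2.37, 8.81 and 19.8 CPM. None of these passed 1.5-fold. March1, whose ligase removes class II from the surface, had 45.9 and 35.1 CPM.

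Class I presentation genes were close to even against all other macrophages. Of 15 measured class I genes, 0 were higher and 0 lower by 1.5-fold, with a median ratio of 1.18. Against the L class 6 of 15 were higher (3 with median-of-ratios scaling, which sets the median gene to even), and against the G class 4. H2-K1 had 1244 CPM in members and 1120 CPM in the other macrophages, H2-D1 1414 and 1665 CPM, and B2m 4387 and 4205 CPM. The plot of presentation genes by class shows Cd74, H2-DMa, H2-DMb1 and Ciita apart for the members alone, and Ctss, Ifi30, Lgmn and class I side by side.

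**Figure D2:**
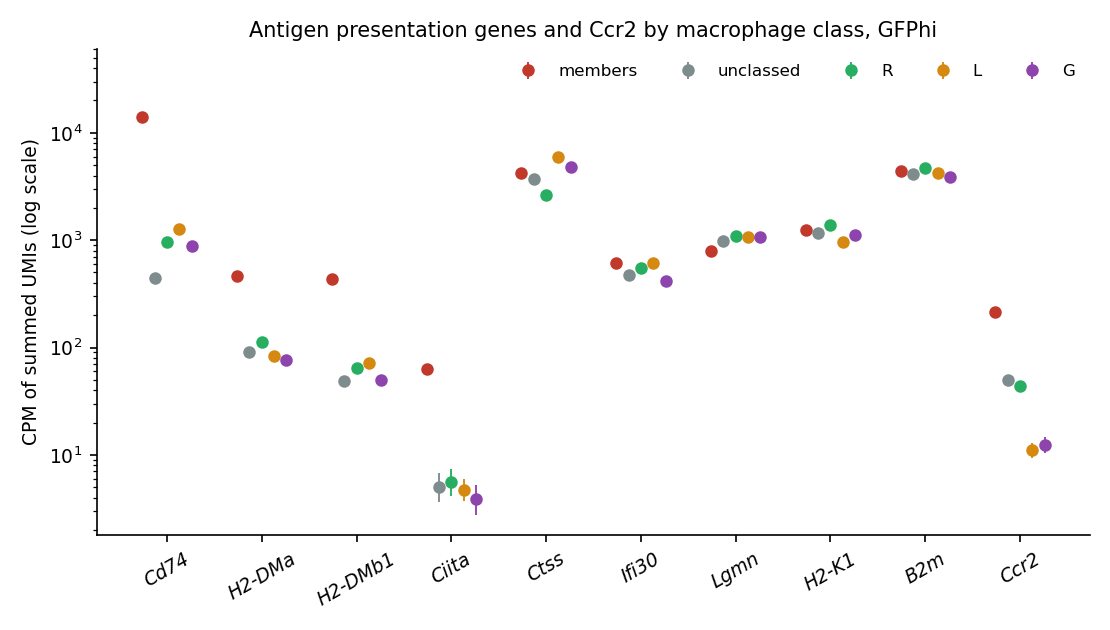
CPM of the summed UMIs of each GFPhi macrophage class (log axis) for class II genes outside the rule, endosomal enzymes, class I genes and Ccr2. Bars are exact 95% Poisson intervals, smaller than the points for most genes; members are above all other classes for Cd74, H2-DMa, H2-DMb1, Ciita and Ccr2.

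Shares of cells with a UMI gave the same order at a fixed depth of 2000 UMIs. Cd74 was detected in 99.9% of members and 38.8% of other macrophages (99.7% and 63.0% without thinning), Ciita in 11.6% and 0.963% (28.2% and 3.17%). In reference cells of other types, Cd74 was detected at 2000 UMIs in 14.3% of GFPhi fibroblasts and 15.6% of endothelial cells. Ciita was detected in 0 of 877 fibroblasts, which allows up to 0.342%. These reference cells had medians of 22492 and 5808 UMIs before thinning. H2-Aa itself had 24.3% in the other macrophages and 9.12% in fibroblasts. The part of free RNA in these values was not tested.

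Ligands that costimulate T cells were higher in part. Cd86, a ligand of CD28, had 203 CPM in members, 123 CPM in the other macrophages and 175 CPM in unclassed cells. Cd40, the receptor of CD40 ligand, had 34.5 CPM in members and 15.998 CPM in the other macrophages, a ratio of 2.15 (interval 1.89 to 2.45). Tnfsf9, the ligand of 4-1BB, had 351 and 170.0 CPM, and Icosl 19.2 and 10.5 CPM. These 4 of 10 measured genes of the list passed 1.5-fold, 0 were lower, and the list's median ratio was 1.34. Against unclassed cells 1 of 10 was higher and 0 lower, with a median ratio of 1.11. Cd83, a dendritic cell activation marker, had 574 and 402 CPM and did not pass.

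Ccr2, the receptor that brings monocytes from the blood (chr9:124101950-124113557, plus strand), separated members most clearly among receptors. It had 216 CPM in members, 49.8 CPM in unclassed cells, 43.9 CPM in the R class, and 11.0 and 12.4 CPM in the L and G classes. The ratio to all other macrophages was 8.38 (interval 7.79 to 9.02). At 2000 UMIs Ccr2 was detected in 28.7% of members and 4.50% of other macrophages (47.2% and 9.92% without thinning), and in 0.228% of fibroblasts and 0.382% of endothelial cells.

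Other monocyte genes went both ways. Cx3cr1, the fractalkine receptor, had 576 CPM in members and 255 CPM in the other macrophages, and Ms4a4c 80.6 and 30.2 CPM, ratios of 2.26 and 2.67. The integrin Itga4 had 91.3 and 60.03 CPM and the protease Napsa 77.3 and 43.4 CPM. S100a4, S100a6 and Fn1 were lower in members, at ratios of 0.630, 0.624 and 0.660. Against unclassed cells 3 of the list's 9 measured genes were higher and 1 lower. The genes that define classical blood monocytes, Ly6c2, Plac8 and Chil3, were near 0 in members, at 0.891, 2.38 and 2.38 CPM.

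Dendritic cells also carry high class II, and their defining genes were near 0 in GFPhi members. Zbtb46, Xcr1, Clec9a and Cd209a had 1.19, 0.495, 1.49 and 1.19 CPM. Flt3, the receptor that dendritic cells need to develop, had 5.25 CPM in members and 0.922 CPM in the other macrophages. A reference of 55 GFPlo dendritic cells had at least 3 UMIs in sum of Flt3, Zbtb46, Xcr1 and Clec9a, and C1q below the minimum. In these Flt3 had 134 CPM, Xcr1 121 CPM and Zbtb46 87.6 CPM, levels that follow from this choice. Dendritic cells low in these genes were not in the reference. Of the 14 genes of the dendritic list only Batf3 was measured at 10 CPM, with 42.3 CPM in members, 18.1 CPM in the other macrophages and 83.0 CPM in those dendritic cells. Members with at least 3 UMIs of the dendritic list numbered 37 (2.34%), against 0.792% of other macrophages.

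Markers of further cell types moved with the members as follows. Of GFPhi members 334 (21.1%) held at least 3 UMIs of the list of another lineage, against 14.2% of the other macrophages. The B cell list accounted for 232 of them, mostly through Ighm at 159.9 CPM against 60.8 CPM, while Cd79a had 0.792 CPM in members and 1268 CPM in GFPlo B cells. Fibroblast genes summed to 222 CPM in members and 382 CPM in the other macrophages, and T and NK cell genes to 0.891 CPM. No doublet caller was run, and without the macrophages that held such UMIs the class II high share of GFPhi macrophages was 21.4%, with 323 genes higher and 424 lower than in the other macrophages.

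Immunoglobulin transcripts among the leading genes came from a single cell. Igha had 331 CPM in members and 0.784 CPM in the other macrophages, with 3335 of its 3338 UMIs in 1 member, and Jchain and Iglv1 had nearly all of theirs in the same way. Without that cell 3 UMIs of Igha remained, a ratio of 0.380 (interval 0.0746 to 1.21).

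Genes of myeloid surface and survival function were also among the leading ones. Clec4b1, a C-type lectin, had 98.4 CPM in members, 17.3 CPM in unclassed cells and 12.8 CPM in all other macrophages, a ratio of 7.68 (interval 6.92 to 8.54). Plbd1, a phospholipase B-like enzyme, had 131.5 and 22.3 CPM, a ratio of 5.90. Bcl2a1a and Bcl2a1d, near-identical relatives of the survival factor BCL2 whose reads may be shared, had 176 and 391 CPM in members against 42.4 and 123 CPM. Scimp, an adaptor that associates with class II, had 59.2 and 16.5 CPM, and Tmem176a 401 and 124 CPM. Among C-type lectins Clec4a1, Clec4a2 and Clec4a3 had ratios of 1.75, 1.82 and 1.75, and Clec4d was 3.53-fold lower (92.2 against 326 CPM). In all, 4 of 10 lectins were higher and 1 lower than in the other macrophages.

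**Figure D3:**
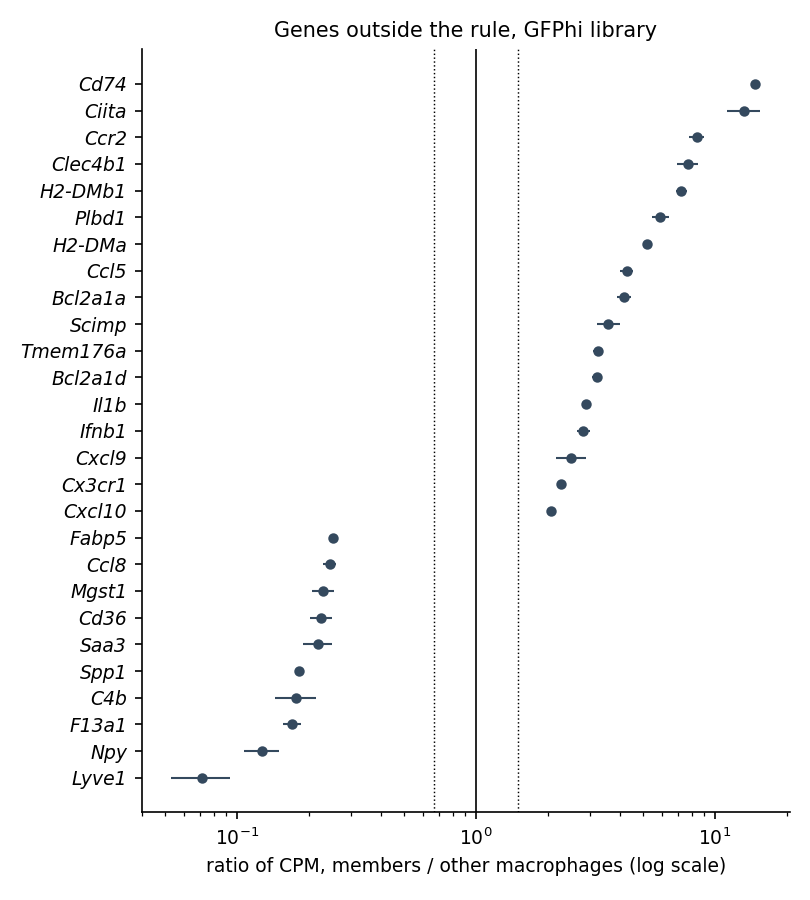
Ratio of CPM, GFPhi class II high macrophages over the other GFPhi macrophages, on a log axis with exact 95% intervals for counting error; dotted lines mark 1.5-fold. Cd74 and Ciita stand highest and Lyve1 lowest; the Igha, Jchain and Iglv1 values, which rest on 1 cell, are not drawn.

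Inflammatory messages differed gene by gene. Il1b, the inflammasome cytokine, had 1429 CPM in members, 790.1 CPM in unclassed cells and 317 to 607 CPM in the R, L and G classes, a ratio of 2.88 to all other macrophages (interval 2.82 to 2.94). It was detected at 2000 UMIs in 58.1% of members, 33.5% of other macrophages and 2.96% of fibroblasts (66.4%, 44.99% and 17.7% without thinning). Il1rn, the antagonist of the same receptor, had 23.8 and 40.4 CPM, and Il10 18.9 and 33.8 CPM. Against all other macrophages, members were thus higher in Il1b and lower in Il1rn and Il10. Of 13 measured cytokines 2 were higher and 2 lower in that comparison, with a median ratio of 1.06. Against unclassed cells 1 of 14 was higher and 1 lower, and against the G class 2 of 13 were higher and 1 lower. The lower level of both Il1rn and Il10 therefore did not pass 1.5-fold against each of these classes.

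Among 17 measured chemokines 5 were higher and 4 lower. Ccl3 and Ccl4, which attract leukocytes, had 1092 and 5212 CPM in members against 689 and 3260 CPM. Ccl5, which attracts T cells, had 192 CPM against 44.9 CPM, a ratio of 4.27, of which 1 member held 422 of 1935 UMIs, and the ratio without that cell was 3.34. Cxcl10, which attracts T cells through CXCR3, had 391 CPM against 189.5 CPM, and Cxcl9 28.9 against 11.5 CPM, a ratio of 2.50 that was 1.76 without the member that held 87 of its 292 UMIs. Ccl8, the chemokine in the title of the study (chr11:82115185-82116799, plus strand), was 4.11-fold lower in members (interval 3.87 to 4.36), with 111 CPM in members, 179 CPM in unclassed cells, 109.6 CPM in the L class, 279 CPM in the G class and 1566 CPM in the R class. Members and the L class had the lowest Ccl8 of the 5 classes, and the R class stood far above the rest. At 2000 UMIs Ccl8 was detected in 7.62% of members, 20.2% of other macrophages and 2.85% of fibroblasts (13.2%, 31.3% and 12.6% without thinning). Ccl7 and Pf4 were also lower, at 197 against 442 CPM and 339 against 1056 CPM, and both had their highest level in the R class.

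Interferon genes leaned to members. Ifnb1, interferon beta itself (chr4:88522025-88522774, minus strand), had 168 CPM in members, 81.3 CPM in unclassed cells, 75.6 CPM in the G class, 53.2 CPM in the L class and 31.4 CPM in the R class. The ratio to all other macrophages was 2.81 (interval 2.64 to 2.99), and detection at 2000 UMIs was 17.8% of members, 7.47% of other macrophages and 0.114% of fibroblasts. Of 16 measured type I interferon response genes 7 were higher and 0 lower, with a median ratio of 1.41. Among them Isg15, a ubiquitin-like modifier, had 287 against 153 CPM, Ifit2 73.0 against 30.8 CPM, Rsad2 60.7 against 33.2 CPM and Irf7 67.7 against 44.8 CPM. Of 11 interferon-gamma response genes 4 were higher (Cxcl9, Cxcl10, Gbp3 and Socs1) and 0 lower, median ratio 1.37. Against unclassed cells 5 of 16 and 1 of 11 were higher and 0 lower. The type I list therefore had its genes past 1.5-fold on the side of members in both comparisons.

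The stress genes that tissue dissociation is known to induce were measured beside these. Of 11, 2 were higher in members, Hspa1a (139 against 78.1 CPM) and Hspa1b (16.9 against 9.29 CPM), and 0 lower. The list's median ratio was 1.33, close to the 1.41 and 1.37 of the type I and interferon-gamma lists. Against unclassed cells 0 of 11 passed in either direction, with a median ratio of 1.04 beside 1.27 and 1.16. The part of the stress genes in the cytokine and interferon values was not tested.

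Genes of tissue-resident macrophages were low in members. Of 13 measured genes of that list 0 were higher and 12 lower, median ratio 0.265. Lyve1, the hyaluronan receptor, had 5.15 CPM in members, 10.4 CPM in unclassed cells and 348 CPM in the R class, and F13a1, a transglutaminase, 49.7, 80.9 and 1232 CPM. Mrc1, the mannose receptor, had 176, 193 and 936 CPM. The list has no gene in common with the R score. Yet R genes chose the R class, and members had R below M, so these values stand as a description. Against unclassed cells 8 of 10 measured were lower and 0 higher.

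Lipid and phagocytic genes were low too. Spp1, osteopontin, had 370.1 CPM in members, 971 CPM in unclassed cells and 3696 CPM in the L class, and was 5.53-fold lower than in all other macrophages. Fabp5, a fatty acid carrier, had 836, 885 and 6265 CPM, so members and unclassed cells were close. The scavenger receptor Cd36 had 35.3, 65.9 and 240.1 CPM, and Lgals3, galectin-3, 1732, 1921 and 8472 CPM. Of 16 measured genes 12 were lower and 0 higher than in all other macrophages, median ratio 0.483, but 4 of 16 were lower than in unclassed cells.

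Repair and matrix factors were mostly lower, with 8 of 15 lower and 2 higher than in the other macrophages, and 8 of 16 lower and 1 higher than in unclassed cells, where the fibroblast and mesothelial genes were lower in members too. Igf1, a growth factor for cardiac repair, had 201 CPM in members, 467 CPM in unclassed cells and 542 CPM in the other macrophages. Timp2, a metalloproteinase inhibitor, had 302 and 673 CPM in members and other macrophages. Arg1, the arginase of alternatively activated macrophages, had 18.1 and 74.7 CPM. The 2 higher genes were Tgfbi, a matrix protein induced by TGF-beta, at 293 and 182 CPM, and Retnla at 15.6 and 3.23 CPM. The Retnla level rested on few cells: 8 of 1580 members (0.506%) and 36 of 5557 other macrophages (0.648%) had a UMI, and 1 member held 37.3% of the members' UMIs. Of complement and Fc receptor genes, 2 of 14 were higher, the activating receptor Fcgr4 (176 against 98.2 CPM) and Itgax, CD11c (35.6 against 19.7 CPM), and 2 lower, C4b and the properdin gene Cfp.

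Among the remaining genes named by rank, Npy had 14.3 CPM in members and 113 CPM in the other macrophages, Saa3 21.9 and 101 CPM, and Mgst1 35.6 and 156 CPM. Npy had its highest level in the L class (269 CPM) and Saa3 in the R class (404 CPM). The transcription factor Runx3 had 55.2 and 29.3 CPM and the cholesterol sensor Nr1h3 9.31 and 15.2 CPM, the 2 of 15 measured myeloid factors that passed. Hmgb2 was the 1 of 6 measured replication genes that passed (462 and 288 CPM).

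The p16 transcript was scarce in all macrophages and the reporter level was close in members and the rest. Cdkn2a, whose 3 prime counts do not separate p16 from p19Arf, had 2 UMIs in GFPhi members (0.198 CPM) and 52 UMIs in the other macrophages (1.20 CPM), a ratio of 0.165 with a counting interval of 0.0195 to 0.628. Both levels lie below the 10 CPM needed for a count as lower. mGFP had 33.3 CPM in GFPhi members, 30.9 CPM in the other GFPhi macrophages and 22.6 CPM in GFPlo members, the last from 3 UMIs. The CreERT2 sequence had 0 UMIs in members. Cdkn1a, the p21 inhibitor and p53 target, had 898 CPM in members, 916 CPM in unclassed cells and 656 CPM in the other macrophages. Of 6 measured genes of this list 0 passed 1.5-fold in either direction.

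Against the R class, 348 of 7548 measured genes were higher in members (4.61%) and 1429 lower (18.9%). The median log2 ratio over all genes was -0.23, and with median-of-ratios scaling, which removed this shift, 636 were higher and 790 lower. The lowest genes were Vsig4, a complement receptor (0.495 and 129.6 CPM), Lyve1, the ficolin Fcna (5.05 and 183 CPM), the endothelin receptor Ednrb (2.28 and 79.5 CPM) and F13a1. All 14 measured resident genes were lower. Chemokines split into 6 higher and 9 lower of 18, and type I interferon genes into 3 higher and 2 lower of 16, or 3 and 0 with the other scaling. Dissociation stress genes were higher in 4 of 11 (7 with the other scaling) and lower in 0.

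Against the L class, 1387 of 7064 genes were higher (19.6%) and 625 lower (8.85%), with a median log2 ratio of 0.11, and 817 higher and 1237 lower with median-of-ratios scaling. Besides Ccr2 the leading higher gene was Siglece, an inhibitory sialic acid receptor, at 63.4 and 3.72 CPM. Npy, Spp1, Fabp5, Cd36 and Mfge8, a bridging molecule for dying cells (16.04 and 134 CPM), were the lowest. Type I interferon genes were higher in 14 of 16 and lower in 0 (11 and 0 with the other scaling), and lipid genes lower in 15 of 17. Dissociation stress genes moved with the interferon list here: 10 of 11 were higher (median ratio 1.74), or 6 of 11 with the other scaling, and their part in its values was not tested. The L class was the deepest, with a median of 9661 UMIs.

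Against the G class, 483 of 7085 genes were higher (6.82%) and 381 lower (5.38%). Hmox1, the haem-degrading enzyme, had 164 CPM in members and 891 CPM in the G class, and Airn, an imprinted noncoding RNA, 18.4 and 86.5 CPM. Type I interferon genes were higher in 15 of 16, with Isg15 at 287 and 136 CPM and Ifit2 at 73.0 and 31.8 CPM, while 2 of 11 dissociation stress genes were higher. Monocyte-derived genes were higher in 7 of 9, class I genes in 4 of 15, and lipid genes lower in 11 of 16. The type I interferon list thus stood above 1.5-fold for most genes against the L and G classes, for 5 of 16 against unclassed cells and 3 of 16 against the R class.

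**Figure D4:**
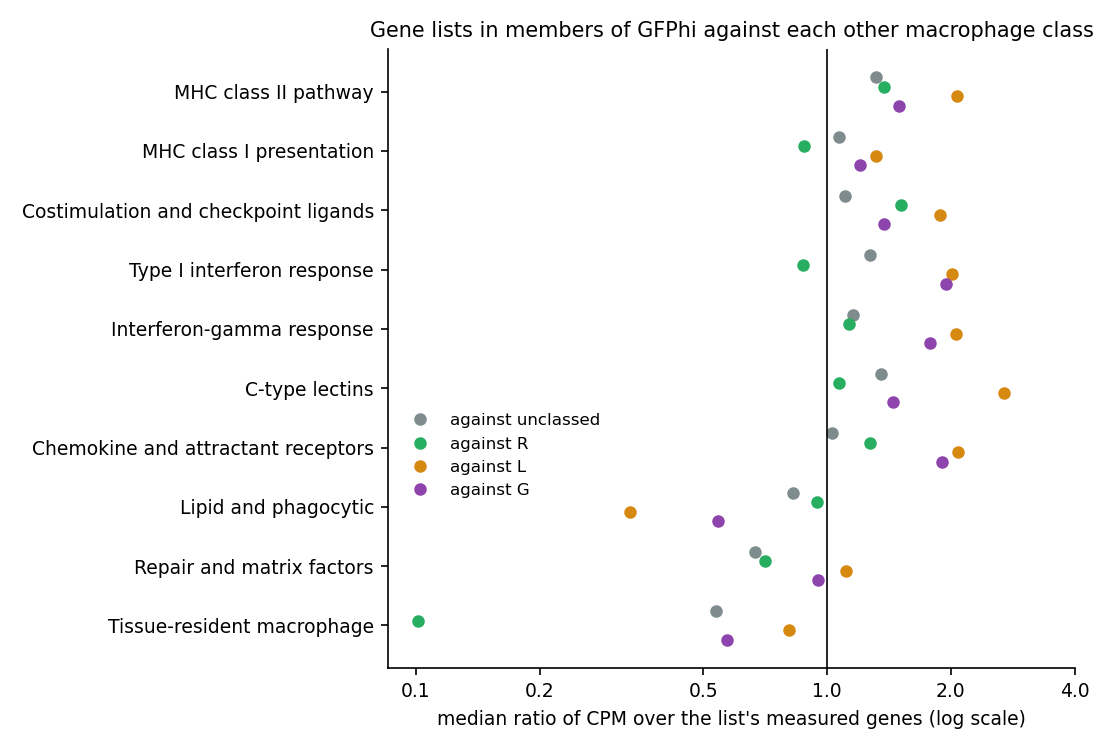
Median ratio of CPM over the measured genes of each list (log axis), GFPhi class II high macrophages over each other class. The tissue-resident list is lowest against the R class and the lipid list against the L class. The type I interferon median is 1.94 against the G class and below 1 against the R class.

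Class II high macrophages varied among themselves. GFPhi members were divided into 4 bands of 395 cells by M, with median class II levels of 47.6, 132, 247 and 418 per 10000 and similar medians of 5373, 6307, 5975 and 5854 UMIs. These bands are ranges of the rule's own score. Between the highest and lowest band 216 of 7194 genes were higher (3.0%) and 1019 lower (14.2%). The median log2 ratio was -0.18, and with median-of-ratios scaling 413 were higher and 613 lower.

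Cd74, Ciita, Ccr2, Clec4b1 and Mgl2 were higher in each band than in the one before. From lowest to highest, Cd74 had 4830, 10145, 16642 and 25524 CPM. Ciita had 27.03, 49.2, 70.5 and 107 CPM. Ccr2 had 102, 160.5, 249 and 362 CPM, so the highest band held 3.55 times the level of the lowest. Clec4b1 had 34.5, 75.8, 98.0 and 191 CPM, and Mgl2, a galactose-binding lectin, 18.3, 38.4, 53.3 and 109 CPM. Of 10 measured lectins 3 were higher in the highest than in the lowest band (Clec4b1, Mgl2 and Clec10a) and 2 lower (Clec4d and Clec4e), or 3 and 1 with the other scaling. Il1b was 1070 CPM in the lowest band and 2087 CPM in the highest, and Ifnb1 120.2 and 246 CPM.

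Repair, lipid and resident genes went the other way. Ccl8 had 203, 124, 99.5 and 15.7 CPM from the lowest band to the highest, a 12.9-fold lower level at the top. Igf1 had 312, 232, 181 and 71.3 CPM, Spp1 628, 456, 234 and 153 CPM, and Pf4 477, 391, 322 and 153 CPM. Arg1 had 41.6, 24.4, 2.74 and 3.39 CPM. Of the lists, 8 of 9 measured resident genes, 12 of 16 lipid genes and 10 of 16 repair genes were lower in the highest band, or 7, 8 and 9 with the other scaling. Type I interferon genes were higher in 3 of 16, or 7 of 16 with the other scaling.

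Fibroblast genes moved with the bands as well, all 5 lower in the highest: Dcn had 114 CPM in the lowest band and 14.4 CPM in the highest, Col1a1 147 and 37.8 CPM. All 4 measured mesothelial genes were lower too (median ratio 0.189). Of the dendritic list both measured genes were higher in the highest band: Batf3 had 39.1, 36.6, 34.1 and 61.1 CPM from lowest to highest, and Dpp4 5.82 CPM in the lowest and 11.5 CPM in the highest. The defining dendritic genes Zbtb46, Xcr1 and Clec9a had 0.849, 1.27 and 4.24 CPM in the highest band. Without members that held 3 UMIs of another lineage, 304 and 321 cells remained, and Dcn had 13.3 CPM in the highest and 18.2 CPM in the lowest band. In the same cells Ccl8 was still 12.9-fold lower, Igf1 4.62-fold and Spp1 4.34-fold lower in the highest band, and Ccr2 3.49 times as high.

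**Figure D5:**
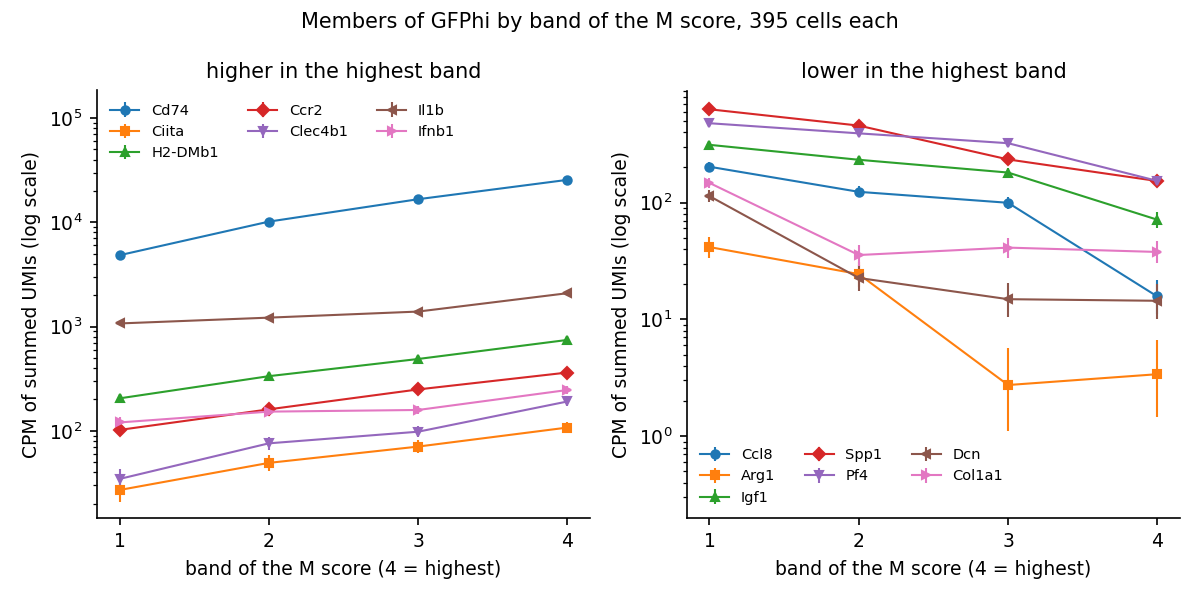
CPM of the summed UMIs in each band of the M score (395 GFPhi members each, log axes) with exact 95% Poisson intervals. Left, genes that are higher in the highest band; right, genes that are lower, among them Ccl8 from 203 to 15.7 CPM and the fibroblast gene Dcn from 114 to 14.4 CPM.

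Members also differed by what score came next. In 1175 of them no other score was above 0.5, in 170 the next was G, in 160 L and in 75 R. The Cd74 level was close in all 4, from 12882 to 14611 CPM. Ccr2 was 249 CPM in cells with no other score and 109.7, 142 and 200.4 CPM with G, L and R next. The Ccl8 level ran from 32.5 CPM with L next to 358 CPM with R next, and Igf1 from 160.4 CPM with L next to 314 CPM with G next. Between members with G next and those with no other score, 413 of 7141 genes were higher (5.78%) and 539 lower (7.55%). Of the type I interferon genes 10 of 16 were lower with G next and 0 higher, and of the interferon-gamma genes 7 of 11 and 0. Ifnb1 had 77.8 CPM with G next and 195 CPM with no other score, and Cxcl10 225 and 474 CPM. Other markers moved with them: 5 of 5 fibroblast genes (median ratio 0.388), the 1 measured mesothelial gene (0.134) and 2 of 11 dissociation stress genes were also lower with G next, and their part in the interferon values was not tested.

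The 75 members with R next had a median of 4624 UMIs and the 160 with L next 8929 UMIs. Between them, 2373 of 7676 genes were higher with R next (30.9%) and 816 lower (10.6%). The median log2 ratio was 0.21, and with the other scaling 1548 were higher and 1485 lower. Resident genes were higher in 11 of 11 measured (10 with the other scaling) and lipid genes lower in 12 of 16. The members were split on the R and L scores themselves, so these values describe the split. Of the endothelial list 4 of 4 measured genes were also higher with R next, and its part in these values was not tested. Lyve1 had 55.4 CPM with R next and 2.07 CPM with L next, and Lgals3 797 and 4350 CPM.

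Members were also divided by Ccr2, called after thinning each cell to 2000 UMIs: 425 GFPhi members had a Ccr2 UMI and 1058 did not. The levels below use all UMIs of these cells, with medians of 5857 and 6191 UMIs. The first had a median of 264 class II UMIs per 10000 and the second 168. Ccr2 itself aside, 124 of 7062 genes were higher (1.76%) and 223 lower (3.16%) in the first. Clec4b1 had 169 and 72.7 CPM and Mgl2 88.0 and 40.9 CPM, ratios of 2.33 and 2.15. Il1b had 1786 and 1294 CPM, and Ccl8 38.6 and 136 CPM, 3.53-fold lower with Ccr2. Fabp5 had 346 and 1019.7 CPM and Igf1 112 and 233 CPM. Of 16 lipid genes 6 were lower and 0 higher, of 5 fibroblast genes 4 were lower, the 1 measured mesothelial gene was lower, and of 16 type I interferon genes 4 were lower and 0 higher. A member without a Ccr2 UMI at this depth need not lack the transcript.

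The 26 GFPlo members were compared with the 1580 of GFPhi. Here 1704 of 7809 genes were higher in GFPhi (21.8%) and 2418 lower (31.0%), with a median log2 ratio of -0.22, and 2473 higher and 1586 lower with median-of-ratios scaling. A gene at 10 CPM has 1 or 2 UMIs over all GFPlo members, so these counts rest on few molecules. Of 10 measured class II pathway genes 1 was higher and 2 lower in GFPhi, or 3 and 1 with the other scaling. Among the leading partners, Cd74 had 14110 CPM in GFPhi and 13649 CPM in GFPlo, a ratio of 1.03 (interval 0.987 to 1.08), H2-DMa 467 and 459 CPM, H2-DMb1 438 and 595 CPM, and Ciita 62.9 and 52.7 CPM (interval of the ratio 0.576 to 2.98). Ccr2 had 216 CPM in GFPhi and 316 CPM in GFPlo, a ratio of 0.683 (interval 0.504 to 0.951), and Il1b 1429 and 1114 CPM.

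Other genes were far apart. Apoe, the lipid carrier of tissue macrophages, had 14139 CPM in GFPhi and 2447 CPM in GFPlo members. Pf4 had 339 and 7.53 CPM, Cxcl1, a neutrophil attractant, 274 and 7.53 CPM, and Fcrls 182 and 7.53 CPM, each with 1 UMI in GFPlo. Ifnb1 had 168 and 22.6 CPM, the latter from 3 UMIs. Of 14 macrophage identity genes 9 were higher in GFPhi and 0 lower (13 and 0 with the other scaling), and of 9 resident genes 8 were higher and 1 lower. Ccl8 had 0 UMIs in GFPlo members and 111 CPM in GFPhi, at least 4.92-fold higher against a floor of 3 UMIs over the group.

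The genes lower in GFPhi members were led by fibroblast transcripts. Ptn, a growth factor, had 1.78 CPM in GFPhi and 241 CPM in GFPlo members, Cthrc1 5.55 and 482 CPM, Eln, elastin, 12.0 and 821 CPM, Sfrp2 3.47 and 248 CPM, and Ogn 2.08 and 166 CPM. In GFPlo fibroblasts these 5 had 556, 1307, 2569, 790 and 760 CPM. The 5 genes of the fibroblast list, none of them at 0, summed to 2575 CPM in GFPlo members and 222 CPM in GFPhi members, and 20 of the 26 GFPlo members (76.9%) held at least 3 of their UMIs. Fibroblasts were 9659 of the GFPlo cells and 914 of the GFPhi cells. The part of fibroblast RNA in the difference between libraries was not tested, and library and sort cannot be told apart.

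Within GFPlo, members and the 22 other macrophages were set side by side without reading beyond their counts: 1628 of 7028 genes were higher (23.2%) and 2148 lower (30.6%). Cd74 had 13649 and 1426 CPM, H2-DMb1 595 and 40.2 CPM, and Clec4b1 226 and 30.1 CPM. Ciita had 7 UMIs in members and 0 in the other macrophages, at least 1.75-fold higher against a floor of 3 UMIs over the group. Ccr2 had 316 and 161 CPM, a ratio of 1.97 (interval 1.08 to 3.75), and Pf4 1 UMI in members against 159. Cd74, H2-DMa, H2-DMb1, Plbd1 and Clec4b1 were higher in members in both libraries.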

How the data were processed

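Raw UMI counts per gene and barcode were deposited as 1 matrix per library (GFPhi and GFPlo). Per the labels' protocols they come from a SeekOne DD 3 prime droplet kit, while another label names 10x Genomics, and per the submitters' processing notes the build was mm 10. The aligner, counter and doublet step were not given in the sources used here. Both files list 32287 features, of which 32235 of 32285 Ensembl identifiers matched GENCODE release 21.

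Members followed the rule stated in the results. The members, the 28 gene lists and the tests were chosen with earlier results of these data known. UMIs were summed over the cells of a group and given as CPM. Intervals are exact at 95% (Poisson for CPM, conditional binomial for ratios, Clopper-Pearson for shares). Fibroblast and endothelial reference cells had at least 50 and 5 UMIs of their marker list per 10000. For shares at fixed depth each cell was thinned to 2000 UMIs, which left out 97 of 1580 GFPhi members, 467 of 5557 other macrophages, 37 of 914 fibroblasts and 53 of 315 endothelial cells. The ratio code was tested on simulated data. Named genes were the rule genes, a fixed set of class II, monocyte, dendritic, chemokine and p16 genes, the 15 highest and 10 lowest by the nearer interval bound of genes that reached 50 CPM and 20 UMIs, 5 each way against each class and between libraries, and up to 4 of each list each way; others, among them the lectin and M band examples, were chosen after their values were seen. Gbp4, Ido1, Ifi47, Igtp and Fpr2 had no UMI in the cells compared, and Cxcl11, Mx1 and Clec7a are not analysed here. Alternatives changed the score limit, the margin to the next score, the C1q and mitochondrial limits, the scaling, the CPM minimum, the depth and the cells left out. Python 3.11.15, numpy 2.4.6, scipy 1.17.1, pandas 2.3.3 and matplotlib 3.10.9 were used.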

Additional observations from a re-analysis of the deposited data

Results flagged for a closer look

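For 5 fibroblast genes the ratio of class II high to other macrophages lay on opposite sides of 1 in the 2 libraries, with both counting intervals away from 1. Cthrc1 had a ratio of 15.996 in GFPlo and 0.416 in GFPhi, Eln 11.7 and 0.627, Ogn 5.50 and 0.367, Ptn 12.0 and 0.403, and Sfrp2 8.25 and 0.590. The difference itself was not tested, since each library stands for 1 sample. The 26 GFPlo members held 2575 CPM of the fibroblast list and the 22 other GFPlo macrophages 693 CPM, against 222 and 382 CPM in GFPhi. At least 3 UMIs of that list were found in 20 of the 26 and 11 of the 22 cells.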

How the results depend on the processing

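No paired analysis was possible because each group is 1 library and no replicate numbers are shared. The class II high share of GFPhi macrophages ranged from 18.5% (M above 1) to 22.9%, with 18.9% where M led the next score by 0.5. Of all kept GFPhi cells it was 13.01% and 13.3% under those rules, 14.4% with C1q of at least 60, 17.7% after thinning, 16.3% with at most 10% mitochondrial UMIs and 14.3% without macrophages that held other lineages. The GFPlo share fell to 29.2% with scores taken within each library. With at least 50 CPM, 118 genes were higher and 172 lower than in the other macrophages, and 351 and 703 between libraries. With no CPM minimum these were 2554, 3256 and, higher in GFPhi members than in GFPlo members, 6931. Without other-lineage cells 3072 genes were higher in GFPhi than in GFPlo members, and with median-of-ratios scaling 1586 were lower.

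The log2 ratio of Igha turned to -1.67 without other-lineage cells and -1.40 without its 1 cell, and that of Jchain to -0.39. The median log2 ratio of the fibroblast list turned to 0.20 without other-lineage cells, and that of the monocyte-derived list to -0.12 with no CPM minimum, where its low genes enter. Of 32 named genes past 1.5-fold, most were named for their rank in this same comparison, so staying past it is no independent check. In every alternative run that gave them a ratio, 29 stayed past it. The exceptions were Igha, Jchain and Xcr1. Iglv1, counted among the 29, gave no ratio without the member that held most of its UMIs, so that run did not cover it. Of 7 list medians past 1.5-fold, 3 stayed past it in every alternative run. The B cell, fibroblast, monocyte-derived and repair lists did not. Otherwise the cause of a change was not tested. With 26 GFPlo members, a gene without a UMI there may have up to 22.6 CPM, and with 1 library a group no difference between sorts can be set against the spread of replicates.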
